A study of Mus musculus with 12 samples.

Results

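Transcripts of Mettl3 cKO mouse hepatocytes were followed through the first 2 h after transcription was blocked with actinomycin D. The comparison took the 2 libraries of Mettl3 cKO cells at 2 h against the 2 libraries of the same genotype at 0 h, 4 of the 12 libraries of the series. The Mettl3 cKO cells came from C57BL/6J mice that carried Mettl3 flox/flox and a Cre driven by the albumin enhancer and promoter, so that the gene was to be deleted in cells that express albumin and left intact in the other cells of the liver. Control cells came from wild-type littermates. All hepatocytes were isolated by collagenase perfusion, cultured for 16 h and then given 5 µM actinomycin D for 0, 2 or 6 h, and neither the labels nor the methods give the age of the animals. Nor do they say whether the 2 replicates of a group came from separate animals or cultures. The p-values therefore cover the scatter of these particular libraries, which may be technical.

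Actinomycin D binds DNA and stops RNA polymerases, so that an mRNA made before the block is no longer replaced. Its level then follows its decay, which for most mRNAs begins with shortening of the poly(A) tail by the Ccr4-Not complex and ends with decapping or 3'-end digestion. Mettl3 is the catalytic subunit of the complex that writes N6-methyladenosine (m6A) into mRNA, a mark that reader proteins such as those of the YTH family can couple to decay. Hepatocytes devote most of their mRNA to long-lived transcripts of plasma proteins and metabolic enzymes, while mRNAs of transcription factors and signalling inhibitors turn over quickly.

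The 4 libraries held 18365556 to 20914516 reads counted in genes. Levels are CPM, the reads of a gene relative to all counted reads of the library, so every change below is a change in the share of the library. No spike-in RNA was added, and a fall of the total mRNA per cell would not be seen. The genotypes also stood apart in Sult2a1, a liver sulfotransferase, which had 337 to 471 reads in the 4 Control libraries at 0 and 2 h and at most 1 read in the 4 Mettl3 cKO libraries. The 2 libraries of Mettl3 cKO at 6 h stood apart from all 4, with 4 and 2 reads of Eno1b, an enolase copy that had 844 to 930 reads in the 4, so that time and source cannot be told apart after 2 h. Mettl3 itself was counted over the whole gene, so its reads are no direct check of the deletion, and it stood at 22.6 and 23.2 CPM at 0 h and 23.96 and 25.8 CPM at 2 h (log2 change ± SE 0.12 ± 0.10, adjusted p = 0.322), against 33.4 and 28.5 CPM in Control at 0 h and 24.2 and 25.5 CPM at 2 h. Mettl3 cKO thus stood below Control at 0 h, while at 2 h the genotypes overlapped. Hepatocyte markers had a higher summed level than markers of other cells, 51111 to 67515 CPM over 18 genes, of which Alb alone gave 40418 to 52914 CPM. Transcripts of stellate cells and fibroblasts (1679 to 1804 CPM over 21 genes), macrophages (889 to 1016 CPM over 19) and endothelial cells (326 to 618 CPM over 20) were also present. In such mixed libraries fewer cells of a type and less RNA per cell cannot be told apart.

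Of 14277 genes tested, 4402 (30.8%) were lower and 1864 (13.1%) higher at 2 h than at 0 h in Mettl3 cKO (edgeR's quasi-likelihood test, Benjamini-Hochberg adjusted p under 0.05, used throughout). Most changes were small. The median log2 change over all genes was -0.08 with 5% of genes below -1.41 and 5% above 0.49, against a median SE of 0.10. A fall to under 50% of the 0 h share, past -1 on the log2 scale, was called for 1221 genes (8.55%), and 480 of these reached a mean of 10 CPM. Falls past -2 were called for 351 genes (2.46%) and falls past -3 for 145 (1.02%). A rise past 1 was called for 46 genes (0.322%), of which 42 had a mean under 10 CPM and whose median level was 0.914 CPM, and 8 of these (0.056%) rose past 2. Both 2 h libraries lay below both 0 h libraries for 6351 genes (44.5%) and above them for 3743 (26.2%). Leaving out replicate 2 of 2 h moved the count of higher genes to 1173, and leaving out any other single library left it between 1309 and 1916.

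The balance of falls and rises depended on what the counts were divided by. Genes lower at 2 h made up 70.3% of the calls with library totals, 53.1% with TMM, 45.9% with DESeq2 size factors, 93.3% after scaling to Gapdh, 98.1% after scaling to the ribosomal protein genes and 33.4% after scaling to the mitochondrially encoded genes. These scalings moved the median log2 change of all genes from -0.08 to 0.01, 0.05, -0.27, -0.38 and 0.19, in that order. Among the 4402 genes called lower, none was called higher under any of the 5 scalings, and among the 1864 called higher none was called lower. A scaling moves all genes of a library alike, so such turns were unlikely from the start. Many calls were lost, however. Of the 4402 genes 1680 stayed lower with mitochondrial scaling. Of the 1864 genes 482 stayed higher with Gapdh and 150 with ribosomal scaling. The large falls described next are many times these shifts, while most rises are of their size.

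The plot of time courses shows the fastest of these losses. Cyr61, a secreted matricellular protein induced by growth factors and stretch, had 537 and 563 CPM at 0 h and 10.3 and 9.32 CPM at 2 h (-5.81 ± 0.07, adjusted p = 1.53e-25). No gene with at least 10 CPM fell further, and 1.78% of its 0 h share was left after 2 h. Nfkbia, which encodes the inhibitor IkB-alpha that holds NF-kB in the cytoplasm, had 43.6 and 42.2 CPM at 0 h and 1.03 and 1.39 CPM at 2 h (-5.13 ± 0.16). Ier3, a stress-induced early response gene, had 107 and 102 CPM at 0 h and 4.36 and 4.71 CPM at 2 h (-4.53 ± 0.10). Dusp1, a phosphatase that switches off MAP kinases, had 197 and 207 CPM at 0 h and 10.7 and 11.5 CPM at 2 h (-4.18 ± 0.08). In these genes the libraries of a time point lay close together and those of different times far apart. Many genes named here and below were picked for large called changes. The separation of their times is therefore in part given by that choice and adds nothing to the test. Over all genes tested both 2 h libraries lay below both 0 h libraries in 44.5%.

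**Figure D1:**
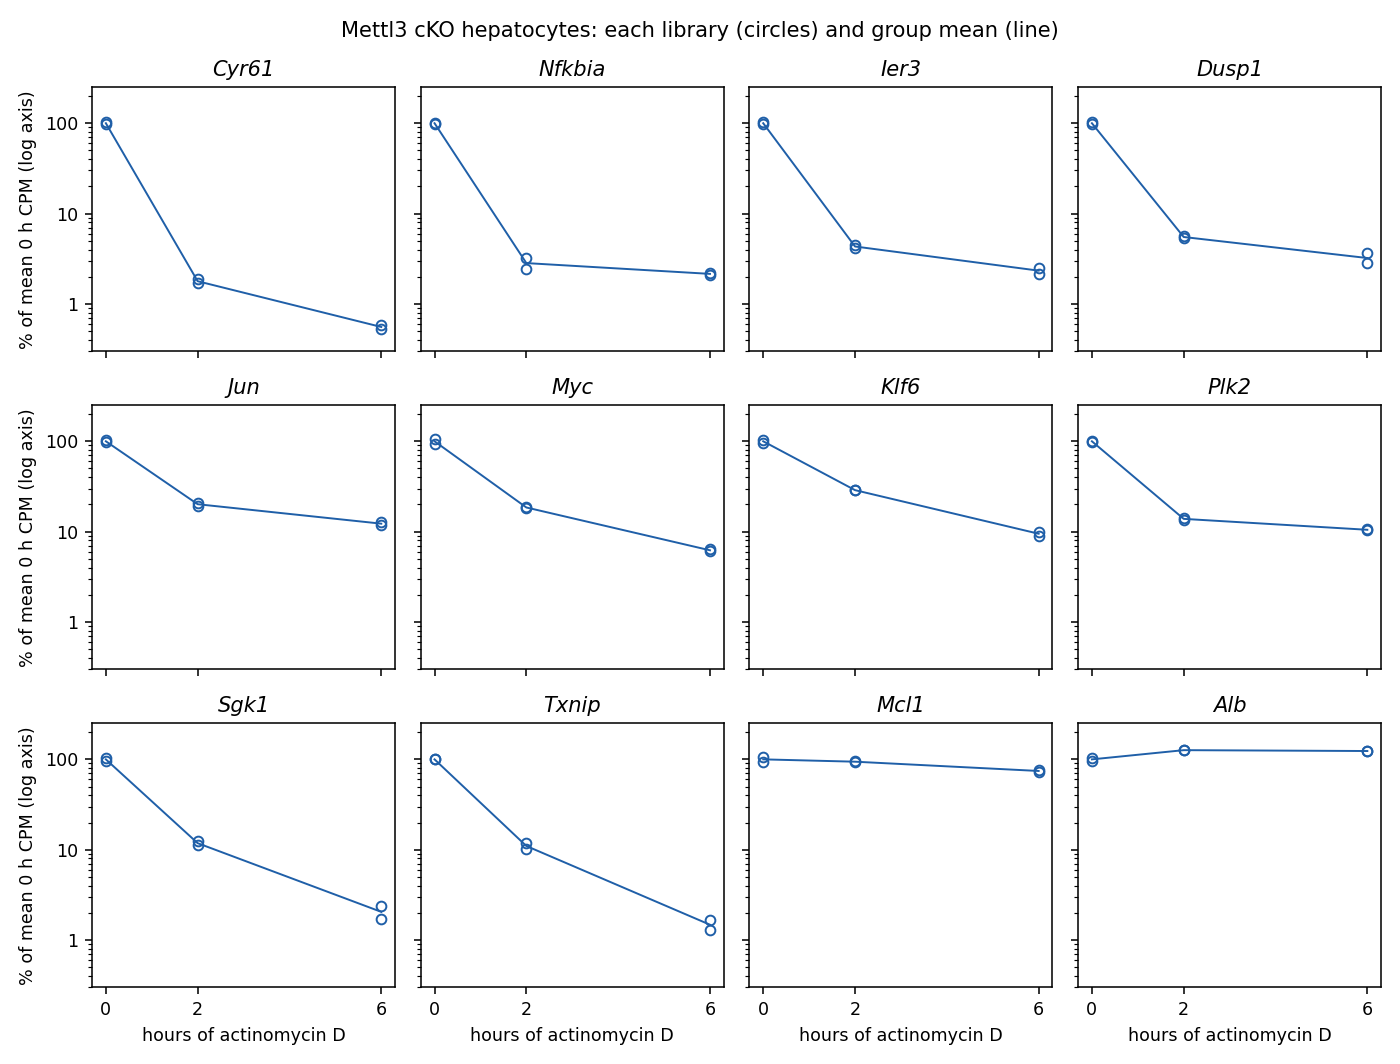
Share of the 0 h level of 12 genes in Mettl3 cKO hepatocytes after 0, 2 and 6 h of actinomycin D, as percent of the mean CPM at 0 h on a log axis. Circles are single libraries and lines join the means. By 2 h 1.78% of Cyr61 and 5.50% of Dusp1 were left, against 94.2% of Mcl1 and 126% of Alb.

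Among the 20 largest falls of genes whose mean reached 10 CPM, 10 held the heptamer TATTTAT, the core of an AU-rich element, at least 1 time in the 3' UTR of their longest coding transcript, while 29.7% of the 13145 genes with such a transcript did. AU-rich elements are bound by proteins of the Zfp36 family, which recruit deadenylases. Windows of 30 bases around the first copy are shown for 5 of the 10 because they let the element be seen in its context, with TATTTAT in capitals, read 5′ to 3′ on the gene's strand from Gencode transcripts of mm10. Those of Cyr61 (chr3:145647092-145647121), Nfkbia (chr12:55489607-55489636) and Dusp1 (chr17:26506158-26506187) are on the minus strand and those of Ier3 (chr17:35822481-35822510) and Plk2 (chr13:110400734-110400763) on the plus strand. The window of Mcl1 (chr3:95660882-95660911, plus strand), an mRNA with 3 copies whose change did not pass the test, is shown beside them.
Cyr61: gaatgttttttTATTTATcaaagtgtagct
Nfkbia: ggaccacgtttTATTTATtgtgcttttgat
Ier3: tgtctaattaaTATTTATgTATTTATgtat
Dusp1: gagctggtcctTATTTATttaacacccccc
Plk2: aataaacttttTATTTATtacagccccaag
Mcl1: gaaaacatgtgTATTTATgaaggtggactt

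A second copy overlaps the window of Ier3, which holds 4 in all. Dusp1 holds 3 copies, as Mcl1 does, so that copy number alone did not order these genes.

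Others of the 20 largest falls were mostly regulators of signalling and transcription. Dusp6, an ERK phosphatase, had 58.8 and 55.2 CPM at 0 h and 5.88 and 4.34 CPM at 2 h (-3.48 ± 0.11). Amotl2, a scaffold that restrains the coactivator Yap, had 149 and 152 CPM at 0 h and 14.9 and 12.5 CPM at 2 h (-3.46 ± 0.08). In both the lowest 0 h value was far above the highest 2 h value. Hes1, a repressor that responds to Notch, had 23.7 and 21.9 CPM at 0 h and 2.99 and 2.30 CPM at 2 h (-3.10 ± 0.15). Sgk1, a serum- and glucocorticoid-induced kinase, had 101 and 109 CPM at 0 h and 11.8 and 13.1 CPM at 2 h (-3.08 ± 0.09). Txnip, an arrestin-like inhibitor of thioredoxin, had 28.6 and 28.4 CPM at 0 h and 3.38 and 2.89 CPM at 2 h (-3.18 ± 0.14). Both Sgk1 and Txnip are known as genes induced by hormones or nutrients. The polo-like kinase Plk2 had 306 and 296 CPM at 0 h and 42.96 and 40.4 CPM at 2 h (-2.85 ± 0.06). Trib1, a pseudokinase adaptor for protein degradation, had 121 and 123 CPM at 0 h and 17.9 and 14.7 CPM at 2 h (-2.91 ± 0.09). Tnfaip3, the ubiquitin-editing enzyme A20 that restrains NF-kB, had 83.2 and 86.1 CPM at 0 h and 10.6 and 14.1 CPM at 2 h (-2.78 ± 0.10). None of these genes had overlapping times. Nor had Fam43a (-4.11), the clock repressor Nr1d1 (-3.62), the interferon-induced factor Irf1 (-3.18), the growth factor Pdgfb (-3.04), the arrestin-domain adaptor Arrdc3 (-3.02), the NF-kB regulator Nfkbiz (-2.86) or the Eph receptor ligand Efna1 (-2.76). All 20 were also lower at 2 h in Control.

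Immediate early transcription factors, which cells induce within minutes of a stimulus, fell as a group. Of 28 tested, 25 were lower and 0 higher, beside 30.8% and 13.1% of all genes tested. Counts of the lists below are to be read beside the same shares. The median log2 change was -1.51 against -0.08 over all genes. Jun, a subunit of AP-1, had 466 and 443 CPM at 0 h and 87.4 and 95.3 CPM at 2 h (-2.31 ± 0.06, adjusted p = 1.05e-19). Myc, which drives growth and ribosome production, had 391 and 350.4 CPM at 0 h and 66.97 and 70.3 CPM at 2 h (-2.43 ± 0.06, adjusted p = 1.63e-19). Of Jun 20.1% and of Myc 18.5% of the 0 h share was left, with no overlap between times. Nfil3, a repressor in clock and cytokine responses, kept far more of its share, with 287 and 293 CPM at 0 h and 224 and 221 CPM at 2 h (-0.38 ± 0.05, adjusted p = 1.46e-06). Egr2, a zinc finger factor of the same wave, was rarer, at 4.78 and 3.68 CPM at 0 h and 0.327 and 0.482 CPM at 2 h (-3.37 ± 0.34). In 13 of the 28 genes the 3' UTR held TATTTAT.

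Kruppel-like factors followed the same course at lower amplitude. All 13 tested were lower, with a median of -0.78. Klf6, the most abundant, had 485 and 520.4 CPM at 0 h and 144 and 146 CPM at 2 h (-1.80 ± 0.05, adjusted p = 4.47e-18), and Klf10, induced by TGF-beta, had 36.2 and 34.7 CPM at 0 h and 6.43 and 6.64 CPM at 2 h (-2.44 ± 0.11, adjusted p = 9.01e-15). Klf2, a factor of endothelial cells, was rare and fell furthest, at 4.83 and 4.33 CPM at 0 h and 0.163 and 0.321 CPM at 2 h (-4.20 ± 0.39). No time points overlapped in these genes. At the slow end, Klf13, a factor best known from lymphocytes, had 172 and 182 CPM at 0 h and 129.8 and 137 CPM at 2 h (-0.41 ± 0.06, adjusted p = 1.61e-06).

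Feedback inhibitors of signalling, the phosphatases, Socs and Sprouty proteins, pseudokinases and IkB family members that end a response, were lower in 34 of 37 cases, with 0 higher and a median of -1.45. Their 3' UTRs held TATTTAT in 22 of 37 genes. The 3 most abundant members fell by less than the median. Dusp5, a nuclear ERK phosphatase, had 254 and 283 CPM at 0 h and 119.5 and 120.5 CPM at 2 h (-1.16 ± 0.06, adjusted p = 1.03e-13). Errfi1, an inhibitor of the EGF receptor, had 467 and 491 CPM at 0 h and 369.9 and 376 CPM at 2 h (-0.36 ± 0.05, adjusted p = 6.51e-06). Trib3, a pseudokinase induced by amino acid stress, had 459.9 and 474 CPM at 0 h and 389.9 and 413 CPM at 2 h (-0.22 ± 0.05, adjusted p = 0.000842). In all 3 the 2 h values lay below the 0 h values, and the change of Trib3 turned to 0.06 and did not pass when scaled to the mitochondrially encoded genes.

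mRNAs of the proteins that carry out or guide decay fell in part as well. Of 21 genes for AU-rich element binding proteins, Pumilio proteins, Btg factors and poly(A) binding proteins, 17 were lower and 2 higher (median -0.73). The lower members numbered 11 when scaled to the mitochondrially encoded genes (median -0.45). Zfp36 (tristetraprolin), which binds AU-rich elements and recruits deadenylases, had 27.7 and 25.7 CPM at 0 h and 4.08 and 5.57 CPM at 2 h (-2.46 ± 0.13, adjusted p = 1.05e-13). Tob2, a deadenylase adaptor, had 67.5 and 70.8 CPM at 0 h and 24.7 and 24.05 CPM at 2 h (-1.50 ± 0.08). Btg1, another such adaptor, was more abundant at 365 and 355 CPM at 0 h and 187 and 189 CPM at 2 h (-0.94 ± 0.05). In all 3 the times were well apart. Pabpc1, the main cytoplasmic poly(A) binding protein, moved the other way in library share, with 2086 and 1937 CPM at 0 h and 2226 and 2200.5 CPM at 2 h (0.14 ± 0.04, adjusted p = 0.0129), a rise that turned to -0.05 and -0.16 when scaled to Gapdh and to the ribosomal protein genes.

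Within the deadenylation, decapping and 5'-3' decay machinery, 25 of 43 genes were lower and 2 higher, with a median of -0.26. Pnrc1, a small protein that binds the decapping complex, fell furthest, with 83.6 and 79.7 CPM at 0 h and 11.5 and 15.7 CPM at 2 h (-2.58 ± 0.10, adjusted p = 6.72e-16). Dcp1a, a decapping activator, had 35.2 and 34.1 CPM at 0 h and 12.7 and 10.6 CPM at 2 h (-1.58 ± 0.11, adjusted p = 4.06e-11), and the helicase Ddx6 had 262 and 274 CPM at 0 h and 183 and 195 CPM at 2 h (-0.50 ± 0.05). Among 24 m6A writers, erasers and readers, 17 were lower and 1 higher (median -0.26). Zc3h13, a subunit that anchors the writer complex in the nucleus, had 72.5 and 67.6 CPM at 0 h and 30.5 and 26.4 CPM at 2 h (-1.30 ± 0.08, adjusted p = 2.51e-12). Igf2bp1, a reader that protects m6A-marked mRNA, had 7.65 and 7.26 CPM at 0 h and 2.83 and 3.00 CPM at 2 h (-1.35 ± 0.20, adjusted p = 3.97e-06), and Rbmx, an RNA-binding protein whose access to some sites depends on m6A, had 10.7 and 9.35 CPM at 0 h and 3.81 and 4.23 CPM at 2 h (-1.31 ± 0.14). Prrc2a, a proposed m6A reader, was far more abundant, at 464 and 429 CPM at 0 h and 363 and 361 CPM at 2 h (-0.30 ± 0.05). Scaled to the mitochondrially encoded genes, the medians of the lists turned to 0.01 and 0.02, with 9 and 6 members lower.

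Numbered zinc finger genes formed the longest of the lists, and most of them fell. Of 306 Zfp genes tested, many of them KRAB repressors of transposable elements, 237 (77.5%) were lower and 2 higher, and the median change was -0.78. Scaled to the mitochondrially encoded genes, 145 were lower and 5 higher (median -0.51). Zfp568, a KRAB repressor and the most abundant of those that fell, had 209 and 215 CPM at 0 h and 97.7 and 96.9 CPM at 2 h (-1.12 ± 0.06, adjusted p = 6.07e-14). Zfp503, a repressor of development without a KRAB domain, fell furthest from a low start, with 4.11 and 5.12 CPM at 0 h and 0.272 and 0.161 CPM at 2 h (-4.37 ± 0.39). Neither overlapped between times. The summed level of the block went from 7882 and 7782 CPM at 0 h to 5304 and 5225 CPM at 2 h. Genes of the KRAB class carry their zinc fingers in a single long exon, and 190 of the 303 with a coding transcript had at most 2 exon junctions per kb of coding sequence.

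Liver transcription factors divided into fast and slow members. Of 40 tested, 23 were lower and 3 higher (median -0.43), and 13 were lower and 6 higher when scaled to the mitochondrially encoded genes (median -0.16). Cited2, a coactivator needed for liver growth, was the most abundant at 624 and 634 CPM at 0 h and 261 and 259 CPM at 2 h (-1.27 ± 0.05, adjusted p = 1.61e-15). Gata6, an endoderm factor, had 15.8 and 18.2 CPM at 0 h and 3.32 and 2.95 CPM at 2 h (-2.44 ± 0.18). Bcl6, a repressor of lipid breakdown genes, had 11.3 and 9.80 CPM at 0 h and 1.69 and 1.12 CPM at 2 h (-2.90 ± 0.21). These 3 genes had no overlap between times. Hnf4a, a master regulator of hepatocyte genes, had 37.2 and 31.9 CPM at 0 h and 29.2 and 31.4 CPM at 2 h (-0.19 ± 0.10, adjusted p = 0.12). Both 2 h values lay below both 0 h values, and the test was not passed. Cebpa, a factor of hepatic metabolism, had 53.6 and 71.98 CPM at 0 h and 46.4 and 47.5 CPM at 2 h (-0.42 ± 0.10, adjusted p = 0.00113). The 0 h libraries of Cebpa lay wide apart. Ppara, the fatty acid receptor, was low at 4.40 and 3.93 CPM at 0 h and 4.19 and 3.75 CPM at 2 h (-0.07 ± 0.19, adjusted p = 0.8), and Onecut2, a factor of hepatic and biliary development, had 84.3 and 75.3 CPM at 0 h and 82.8 and 78.7 CPM at 2 h (0.02 ± 0.07, adjusted p = 0.878). In both the times overlapped.

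Other genes that the study follows fell moderately. Sirt1, a deacetylase, had 43.8 and 42.8 CPM at 0 h and 23.7 and 18.9 CPM at 2 h (-1.03 ± 0.10, adjusted p = 4.62e-09). Notch2, a receptor that guides bile duct fate, had 195 and 196 CPM at 0 h and 166 and 158 CPM at 2 h (-0.27 ± 0.05, adjusted p = 0.00016). Egfr, the EGF receptor, had 374 and 361 CPM at 0 h and 290.2 and 281 CPM at 2 h (-0.36 ± 0.05). Each of the 3 had both 2 h libraries below both 0 h libraries.

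Circadian clock genes were lower in 16 of 21 cases and higher in 0 (median -0.72). Nr1d1, the repressor Rev-erb-alpha, had 33.6 and 28.9 CPM at 0 h and 2.94 and 2.14 CPM at 2 h (-3.62 ± 0.15, adjusted p = 1.21e-15). Per1, a negative arm component, had 40.4 and 33.8 CPM at 0 h and 8.71 and 8.62 CPM at 2 h (-2.10 ± 0.11), its partner Cry2 had 34.2 and 36.4 CPM at 0 h and 14.2 and 11.1 CPM at 2 h (-1.48 ± 0.10), and the repressor Bhlhe40 had 193 and 200.4 CPM at 0 h and 107 and 107 CPM at 2 h (-0.88 ± 0.06). With DESeq2 size factors 1 member was called higher, and with library totals, TMM, Gapdh, ribosomal or mitochondrial scaling 0 were. The lower members numbered 13 with TMM, 13 with DESeq2 size factors and 9 with mitochondrial scaling, where the median was -0.42.

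Many stress and cell death regulators were lower. Of 30 p53 genes, 20 were lower and 3 higher (median -0.44), and 12 were lower and 4 higher with mitochondrial scaling (median -0.17). Sesn2, a stress-induced brake on mTORC1, had 134 and 137 CPM at 0 h and 23.1 and 24.6 CPM at 2 h (-2.51 ± 0.07, adjusted p = 9.79e-19), and Gdf15, a secreted stress hormone with 3 copies of TATTTAT, had 57.2 and 52.1 CPM at 0 h and 10.1 and 8.46 CPM at 2 h (-2.56 ± 0.11). Trp53inp1, an autophagy factor induced by p53, was more abundant at 359 and 408 CPM at 0 h and 222 and 207 CPM at 2 h (-0.84 ± 0.06). All 3 fell without overlap. Cdkn1a, the cell cycle inhibitor p21, had 312 and 303 CPM at 0 h and 184 and 188 CPM at 2 h (-0.73 ± 0.05). In the Bcl2 family, Bbc3 (Puma), a trigger of apoptosis, had 33.3 and 33.4 CPM at 0 h and 9.15 and 8.30 CPM at 2 h (-1.93 ± 0.11). Bcl2l11 (Bim), another trigger, had 40.02 and 40.4 CPM at 0 h and 13.1 and 12.3 CPM at 2 h (-1.66 ± 0.10). Both lost most of their share. The survival factor Mcl1 had 558 and 633 CPM at 0 h and 569.98 and 552 CPM at 2 h (-0.09 ± 0.05, adjusted p = 0.203), and its times overlapped. Bcl2l1 (Bcl-xL), a second survival factor, had 162 and 161 CPM at 0 h and 129 and 133 CPM at 2 h (-0.30 ± 0.06, adjusted p = 0.000109). Over the 15 members tested, 8 were lower and 2 higher (median -0.24). The lower members numbered 4 without replicate 1 of 2 h, and 3 with mitochondrial scaling, where the median turned to 0.05.

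Genes of the TGF-beta, BMP and Id list were lower in 21 of 33 cases and higher in 0 (median -0.42). Mitochondrial scaling left 11 lower and 2 higher (median -0.15). Id3, an inhibitor of helix-loop-helix factors, had 12.3 and 12.3 CPM at 0 h and 0.926 and 1.50 CPM at 2 h (-3.34 ± 0.20), and its relative Id2 had 18.7 and 13.3 CPM at 0 h and 2.12 and 1.71 CPM at 2 h (-3.06 ± 0.21). Ctgf, the matricellular relative of Cyr61, had 167 and 195 CPM at 0 h and 88.3 and 82.3 CPM at 2 h (-1.09 ± 0.07), with 47.1% of its share left beside 1.78% of Cyr61. None of the 3 overlapped between times. In the integrated stress response 12 of 24 genes were lower and 4 higher (median -0.30), and with mitochondrial scaling 9 were lower and 6 higher (median -0.02). Ddit4, an mTORC1 inhibitor, had 29.2 and 32.6 CPM at 0 h and 6.92 and 6.48 CPM at 2 h (-2.20 ± 0.12), and Slc38a2, an amino acid transporter that the same response induces, had 409 and 408 CPM at 0 h and 119 and 105 CPM at 2 h (-1.87 ± 0.06).

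Metabolic programmes were mixed. Lower members made up 35.7% of the glucose list, 38.2% of the lipid list and 28% of the cytosolic chaperones. These shares were close to the 30.8% lower over all genes tested. Higher members made up 32.1%, 23.5% and 28% of the lists in that order, beside 13.1% over all genes tested. Among 28 genes of glucose production and glycogen 10 were lower and 9 higher. Irs2, an insulin receptor adaptor, had 67.2 and 66.2 CPM at 0 h and 10.7 and 10.9 CPM at 2 h (-2.63 ± 0.09, adjusted p = 9.57e-17). Foxo3, an insulin-regulated transcription factor, had 74.1 and 72.1 CPM at 0 h and 17.2 and 18.7 CPM at 2 h (-2.03 ± 0.08), and Pdk4, the kinase that shuts pyruvate dehydrogenase, had 164 and 161 CPM at 0 h and 49.5 and 47.8 CPM at 2 h (-1.74 ± 0.06). These 3 regulators fell without overlap. Pcx, the first enzyme of gluconeogenesis, rose, with 90.9 and 85.9 CPM at 0 h and 129 and 126 CPM at 2 h (0.53 ± 0.06). In lipid synthesis 13 of 34 were lower and 8 higher, and Fasn, fatty acid synthase, had 180.1 and 184 CPM at 0 h and 92.1 and 80.1 CPM at 2 h (-1.08 ± 0.07, adjusted p = 1.65e-12). Among 25 cytosolic chaperones 7 were lower and 7 higher. Hspa1a, an inducible Hsp70, had 38.6 and 35.4 CPM at 0 h and 16.6 and 17.99 CPM at 2 h (-1.10 ± 0.10) and the constitutive Hspa8 had 1062 and 1008 CPM at 0 h and 790.3 and 813 CPM at 2 h (-0.37 ± 0.05). Of 26 endoplasmic reticulum chaperones and related genes 11 were lower and 1 higher, and among them Xbp1, the spliced factor of the unfolded protein response, changed by -0.62 and Herpud1, a degradation factor of the same compartment, by -0.61. Scaled to the ribosomal protein genes, higher members numbered 3 in the glucose list and 0 in the lipid, cytosolic chaperone and endoplasmic reticulum lists, of which the last had 25 lower. Without replicate 2 of 2 h the cytosolic chaperones had 3 higher and the endoplasmic reticulum list 7 lower.

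Transcripts of secreted plasma proteins gained share. Of 33 genes for albumin, carriers and apolipoproteins 32 were higher and 0 lower (median 0.46), as were 37 of 44 for coagulation and complement with 0 lower (median 0.43). Of 24 acute phase genes 16 were higher and 3 lower (median 0.46). The medians of the first 2 lists stayed above 0 under all 5 scalings, and they were lowest, at 0.16 and 0.13, with the ribosomal protein genes as the standard, where 9 and 6 members were called higher. Acute phase genes then had 6 higher and 5 lower (median 0.16). Alb, serum albumin, made up 4.29% and 4.04% of the libraries at 0 h and 5.29% and 5.24% at 2 h (0.34 ± 0.03, adjusted p = 2.06e-08). Apoe, a lipid carrier of lipoproteins, had 9542 and 8922 CPM at 0 h and 11776 and 12327 CPM at 2 h (0.38 ± 0.05). Fgg, a fibrinogen chain, had 490.3 and 505 CPM at 0 h and 742 and 760.3 CPM at 2 h (0.59 ± 0.05). All 3 had both 2 h values above both 0 h values. Ahsg, the plasma protein fetuin-A, had 7800.4 and 7639.8 CPM at 0 h and 10618 and 10590.00 CPM at 2 h (0.46 ± 0.04), and the complement component C3 had 4343 and 4106 CPM at 0 h and 5830.1 and 5693 CPM at 2 h (0.45 ± 0.04). Apoc3, an inhibitor of triglyceride clearance, had 30.7 and 31.7 CPM at 0 h and 46.7 and 55.97 CPM at 2 h (0.72 ± 0.09).

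Metabolic enzymes and housekeeping machinery showed the same direction at smaller size. Cytochrome P450 genes were higher in 23 of 46 cases and lower in 2 (median 0.40). Cyp2e1, which oxidises ethanol, had 189 and 165 CPM at 0 h and 265 and 244 CPM at 2 h (0.53 ± 0.06), and Cyp3a11, an enzyme of drug metabolism, had 131 and 122 CPM at 0 h and 198 and 182 CPM at 2 h (0.59 ± 0.06). Cps1, which starts the urea cycle, had 48.7 and 50.2 CPM at 0 h and 80.2 and 78.1 CPM at 2 h (0.68 ± 0.07), and 24 of 46 genes of that cycle and of amino acid breakdown were higher with 2 lower (median 0.30). None of these 3 enzymes overlapped between times. Of 84 cytosolic ribosomal protein genes 73 were higher and 0 lower (median 0.32), with Rpl4 at 1287 and 1332 CPM at 0 h and 1471 and 1489 CPM at 2 h (0.18 ± 0.04). For Rpl4 the rise turned to -0.01 when scaled to Gapdh and to -0.12 when scaled to all ribosomal protein genes. Of 81 nuclear genes of oxidative phosphorylation 62 were higher and 0 lower (median 0.30), with the ATP synthase subunit Atp5b at 936 and 983 CPM at 0 h and 1194 and 1171 CPM at 2 h (0.30 ± 0.04). Scaled to Gapdh the counts of higher ribosomal and oxidative genes became 36 and 18, with medians of 0.14 and 0.12, and scaled to the ribosomal protein genes they became 11 and 7, with medians of 0.02 and 0.0025. For the ribosomal genes this last result is largely set by construction, since their own summed counts are the standard. Without replicate 2 of 2 h 41 oxidative genes were higher. With ribosomal scaling the cytochrome P450 genes had 11 higher (median 0.10), and the urea cycle and amino acid list had 7 higher and 6 lower, its median turning to -0.00055. Medians of proteasome (0.16), cholesterol synthesis (0.18) and fatty acid oxidation genes (0.25) turned to -0.14, -0.12 and -0.05 when scaled to the ribosomal protein genes.

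Calls in further lists went both ways. Over all genes tested 30.8% were lower and 13.1% higher. Receptor tyrosine kinases, with 37.5% lower and 8.33% higher, lay close to these shares. Of 38 interferon-stimulated genes 14 were higher and 7 lower (median 0.08). Rsad2, the antiviral enzyme viperin, had 162 and 176 CPM at 0 h and 265 and 270.02 CPM at 2 h (0.66 ± 0.06), the 2 h values above the 0 h values. Translation factors gave 4 lower and 13 higher of 45, and cytosolic aminoacyl-tRNA synthetases 3 and 3 of 18. Receptor tyrosine kinases gave 9 and 2 of 24, histones 3 and 4 of 18, and the 258 solute carriers 37 and 40, with a median of 0.01. Among 23 long noncoding RNAs 8 were lower and 6 higher. Snhg17, a host of small nucleolar RNAs, had 46.05 and 47.3 CPM at 0 h and 21.1 and 22.2 CPM at 2 h (-1.11 ± 0.09), without overlap. Without replicate 1 of 0 h the higher members numbered 22 of the solute carriers, whose median turned to -0.03, 3 of the long noncoding RNAs and 1 of the histones. Without replicate 2 of 2 h they were 3 of the long noncoding RNAs and 2 of the histones, and without replicate 1 of 2 h translation factors gave 2 lower and 7 higher. Scaled to the ribosomal protein genes, the medians of solute carriers, translation factors and interferon-stimulated genes turned to -0.29, -0.22 and -0.22.

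**Figure D2:**
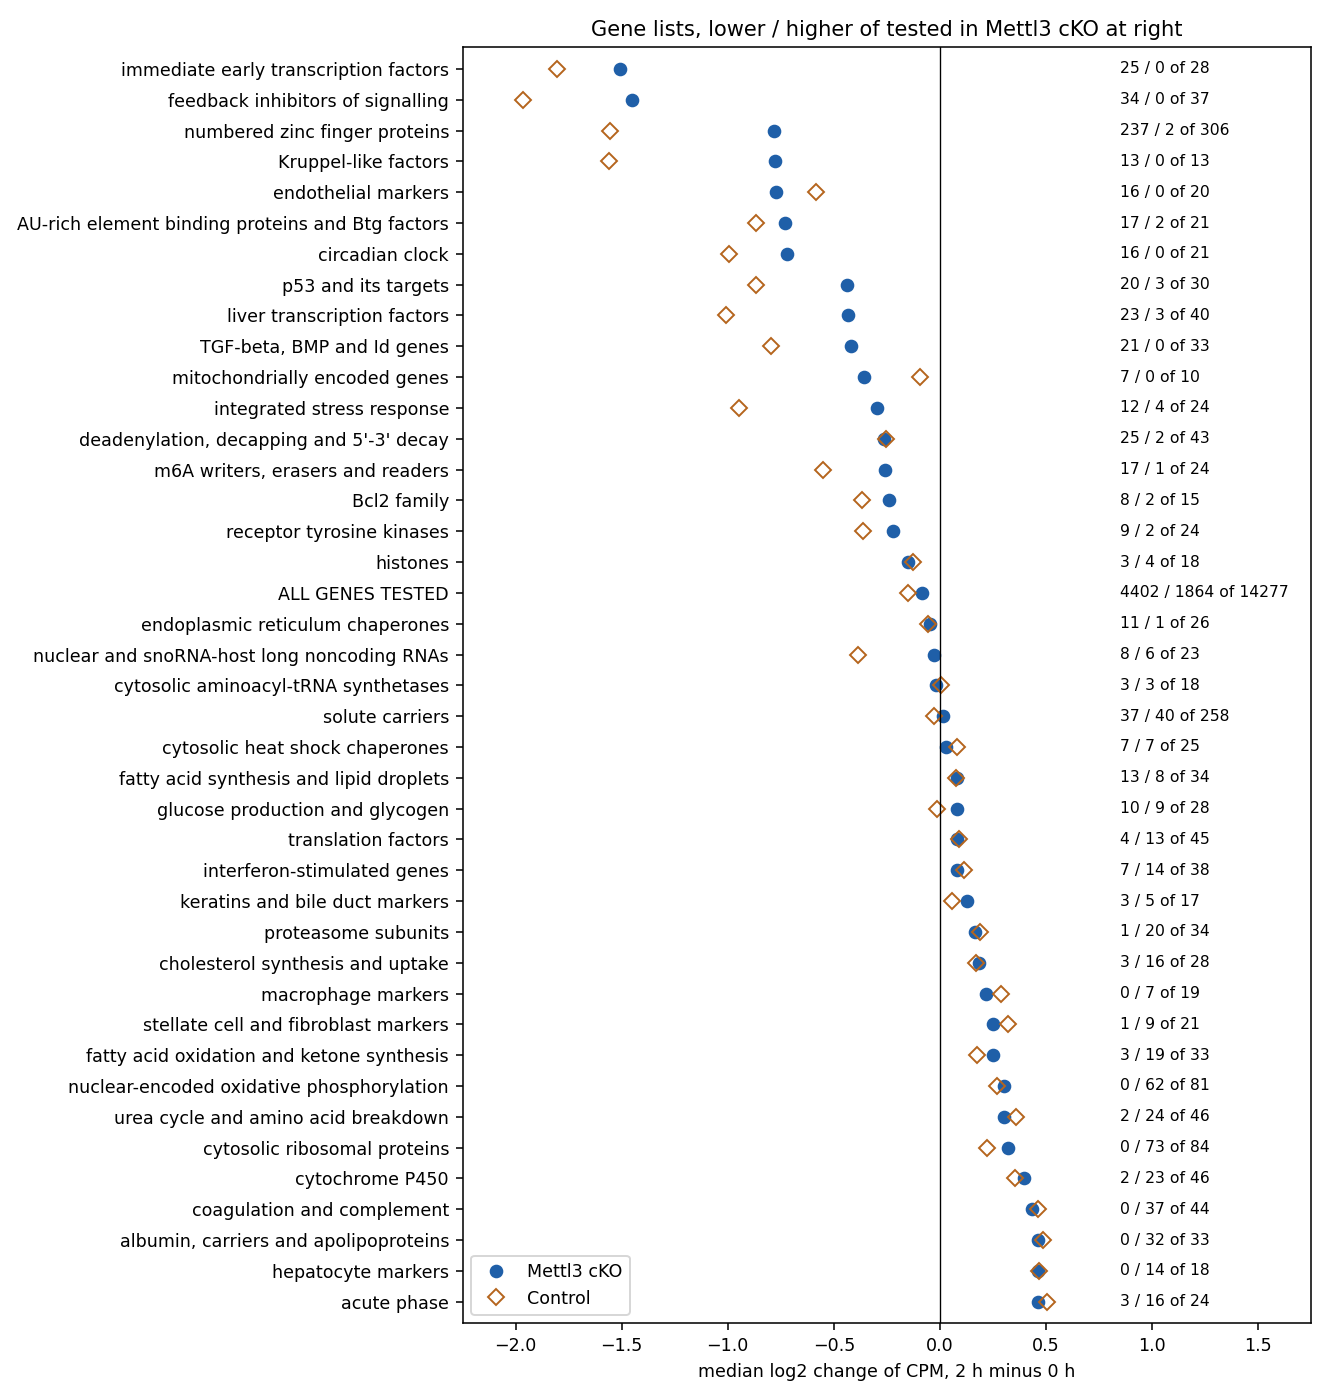
Median log2 change from 0 to 2 h of CPM over the tested members of each gene list, in Mettl3 cKO (filled circles) and Control (open diamonds), with the members lower / higher of all tested in Mettl3 cKO printed at the right. Immediate early factors lie at -1.51 and plasma carriers at 0.46 in Mettl3 cKO, against -0.08 for all genes tested.

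The 20 largest rises among genes with at least 10 CPM were small next to the falls, and 12 of them were also higher in Control. Lars2, a mitochondrial leucyl-tRNA synthetase, led with 38.1 and 50.4 CPM at 0 h and 99.3 and 125 CPM at 2 h (1.34 ± 0.11, adjusted p = 7.71e-10). The antimicrobial peptide gene Defb1 had 11.5 and 12.9 CPM at 0 h and 24.3 and 24.9 CPM at 2 h (1.01 ± 0.10, adjusted p = 8.59e-09). Malat1, a nuclear long noncoding RNA, had 198 and 156 CPM at 0 h and 291 and 298 CPM at 2 h (0.73 ± 0.07, adjusted p = 1.09e-08). All 3 rose without overlap. Mir6236 (0.90) and Rn18s-rs5 (0.78), named as a microRNA locus and an 18S rRNA-related sequence, were among the rises although the libraries were made from poly(A) RNA. Enzymes and secreted proteins of hepatocytes also featured. Agxt, which detoxifies glyoxylate, had 16.5 and 19.2 CPM at 0 h and 29.2 and 32.2 CPM at 2 h (0.78 ± 0.09), Hpd, an enzyme of tyrosine breakdown, had 11.9 and 10.1 CPM at 0 h and 18.4 and 18.05 CPM at 2 h (0.73 ± 0.10), Gckr, the regulator of glucokinase, had 13.01 and 16.4 CPM at 0 h and 24.01 and 25.7 CPM at 2 h (0.76 ± 0.11), and Mbl1, a mannose-binding lectin, had 15.01 and 14.7 CPM at 0 h and 24.01 and 25.9 CPM at 2 h (0.75 ± 0.11). The 2 h values of all 4 lay above the 0 h values.

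Several of the 20 were short mRNAs whose replicates were far apart. Rps29, of the small ribosomal subunit, had 41.8 and 60.8 CPM at 0 h and 76.3 and 104 CPM at 2 h (0.82 ± 0.15). Rps21, of the same subunit, had 49.2 and 76.01 CPM at 0 h and 90.1 and 128 CPM at 2 h (0.80 ± 0.15). Atp5e, of ATP synthase, had 18.98 and 29.7 CPM at 0 h and 38.4 and 49.4 CPM at 2 h (0.85 ± 0.14). In each replicate 2 exceeded replicate 1 at both times. Tomm7, of the mitochondrial import pore, had 6.98 and 13.5 CPM at 0 h and 15.9 and 20.4 CPM at 2 h (0.83 ± 0.20), and Ndufa1, of complex I, had 10.9 and 16.3 CPM at 0 h and 19.3 and 26.5 CPM at 2 h (0.75 ± 0.16), with the same order of replicates. No source says that a replicate number marks a shared culture, and the part of this spread in the rises was not tested.

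Mitochondrially encoded transcripts, which are made by a separate polymerase, moved in the opposite direction to nuclear genes of the same complexes. Of 10 tested, 7 were lower and 0 higher (median -0.36). mt-Nd2, a subunit of complex I, had 2439 and 1896 CPM at 0 h and 1279 and 1143 CPM at 2 h (-0.84 ± 0.08, adjusted p = 2.43e-09). mt-Nd1, of the same complex, had 2984 and 2343 CPM at 0 h and 1652 and 1503 CPM at 2 h (-0.76 ± 0.07, adjusted p = 5.51e-09). mt-Cytb, of complex III, had 1606 and 1271 CPM at 0 h and 932 and 889 CPM at 2 h (-0.66 ± 0.07). No times overlapped in these. mt-Nd5, again of complex I, had 2610.2 and 2159 CPM at 0 h and 1977 and 1780.1 CPM at 2 h (-0.34 ± 0.07), and mt-Co1, of complex IV, had 8688 and 7446 CPM at 0 h and 8033 and 7629 CPM at 2 h (-0.04 ± 0.05, adjusted p = 0.528), with overlapping times, so the loss was uneven within the mitochondrial genome. The 0 h libraries differed, with mitochondrial transcripts at 2.31% of reads in replicate 1 and 1.90% in replicate 2. Without replicate 1 of 0 h the median was -0.17 with 6 lower and 1 higher, and without replicate 2 it was -0.52 with 9 lower and 0 higher.

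Marker genes of other liver cells moved apart from each other. Of 20 endothelial markers 16 were lower and 0 higher (median -0.77), and 10 were lower and 0 higher with mitochondrial scaling (median -0.49). Kdr, a VEGF receptor, had 46.4 and 40.99 CPM at 0 h and 15.7 and 9.37 CPM at 2 h (-1.80 ± 0.13), and the junction protein Cldn5 had 10.5 and 11.6 CPM at 0 h and 2.78 and 2.41 CPM at 2 h (-2.09 ± 0.18). The cadherin Cdh5 had 94.00 and 80.98 CPM at 0 h and 51.9 and 40.1 CPM at 2 h (-0.93 ± 0.09). Both 2 h values lay below both 0 h values in each. The summed level of the list went from 618 and 571 CPM to 391 and 326 CPM. Macrophage markers were higher in 7 of 19 cases and lower in 0, with the Kupffer cell lectin Clec4f at 22.1 and 23.5 CPM at 0 h and 28.9 and 31.8 CPM at 2 h (0.41 ± 0.09). Stellate cell and fibroblast markers were higher in 9 of 21 and lower in 1, with Pdgfra, a PDGF receptor, as the 1 called lower (-0.66 ± 0.13). Without replicate 2 of 2 h 4 macrophage markers were higher. Scaled to the ribosomal protein genes, the macrophage list had 0 higher and 3 lower (median -0.08) and the stellate list 1 higher and 6 lower (median -0.05). Of 5 blood cell markers none passed the test in either direction, and their summed level was 15.5 to 20.4 CPM. Of 17 keratins and bile duct markers 3 were lower and 5 higher (median 0.13). Their summed level rose from 5365 and 5194 CPM at 0 h to 6145 and 6398 CPM at 2 h. Scaled to the ribosomal protein genes, 4 were lower and 1 higher (median -0.18). Sox9, a factor of bile duct and progenitor cells, fell furthest of the 17. It had 38.9 and 34.4 CPM at 0 h and 9.47 and 7.12 CPM at 2 h (-2.14 ± 0.11).

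The deposited 6 h libraries of Mettl3 cKO allow later values to be set beside these. Those libraries stood apart in Eno1b. Nfkbia had 0.949 and 0.895 CPM at 6 h beside 1.03 and 1.39 at 2 h. Plk2 stood at 31.2 and 31.9 CPM after 42.96 and 40.4 at 2 h. For both, the 2 h values lay nearer to the 6 h values than to the 0 h values. Sgk1 had 2.53 and 1.79 CPM after 11.8 and 13.1, and Txnip had 0.369 and 0.474 after 3.38 and 2.89. Over the 1221 genes that had fallen past -1 by 2 h, the median share of the 0 h level left was 35.3% at 2 h and 18.1% at 6 h. Over all genes tested it was 94.4% and 82.5%. The 1221 genes were chosen by their 2 h value, so their 2 h median is low by that choice.

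Median changes were lower for long transcripts and for those with AU-rich elements. Features were read for the longest coding transcript of 13145 genes (92.1% of those tested) and are given as descriptions across genes, which share libraries and are not independent. Genes with no TATTTAT in the 3' UTR had a median log2 change of -0.03, those with 1, 2 and 3 copies had medians of -0.18, -0.23 and -0.29, and the 187 genes with 4 or more had one of -0.34. The motif was held by 45.4% of the 249 genes that fell past -2 and by 20.8% of the 4877 genes between 0 and 0.5 and 10% of the 550 above 0.5. Longer 3' UTRs hold more of any motif, but within each of 5 length classes the genes with the motif had the lower median. The medians were -0.07 with and 0.11 without it in 3' UTRs of up to 300 bases, and -0.23 and -0.14 in those over 2000. The Pumilio motif TGTANATA, searched on the transcript strand only, like TATTTAT and GGACT, was held by 25.9% of genes, whose median was -0.25 against -0.02 without it. GGACT, a form of the sequence context in which m6A is written, was held by 62.4% of genes, with a median of -0.12 against -0.0048 without it. The density of GGACT was 9.29 per 10 kb of 3' UTR in genes past -2 and 9.55 in all genes, while that of TATTTAT was 4.80 and 2.88.

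Transcript length gave the widest spread of medians, from 0.15 in the shortest 20% of genes to -0.27 in the longest. In the longest 54.0% of genes were called lower against 9.26% in the shortest. Several short mRNAs had replicates far apart, as given above, and the part of this in the length trend was not tested. Exon junction density of the coding sequence gave a smaller spread of medians in Mettl3 cKO. Genes with over 8 junctions per kb had a median of 0.02, and those with over 0 to 2 per kb a median of -0.37. In Control the same 2 classes stood at 0.02 and -1.05.

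**Figure D3:**
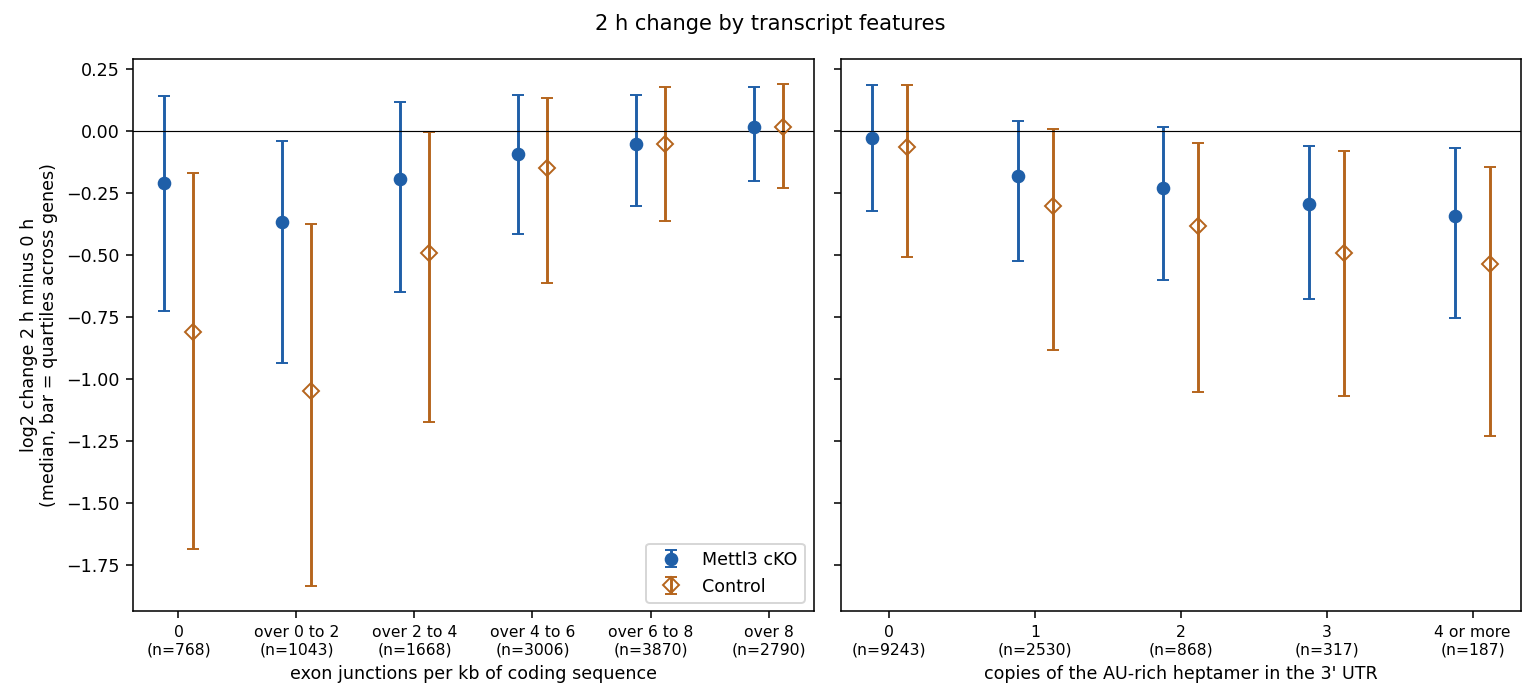
Log2 change from 0 to 2 h by exon junctions per kb of coding sequence (left) and by copies of TATTTAT in the 3' UTR (right), in Mettl3 cKO (filled circles) and Control (open diamonds). Symbols are medians, bars span the quartiles across genes, and n is the number of genes. Genotypes part at low junction density, with medians of -0.37 and -1.05 at over 0 to 2 per kb, and lie together at over 8.

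Whether a 2 h change differed from that in Control was tested as the difference of the 2 changes over the 8 libraries at 0 and 2 h. In Control 5378 genes (37.7%) were lower and 1957 (13.7%) higher, together 51.4% of those tested against 43.9% in Mettl3 cKO. Of the 4402 genes lower in Mettl3 cKO 85.6% were also lower in Control, which is 70.1% of the Control list, and of the 1864 higher 62.2% were also higher (59.3% of the Control list). The difference passed the test for 1955 genes (13.7%) that fell less, or gained more, in Mettl3 cKO, and for 235 (1.65%) with the reverse. The median difference of all genes was 0.06 with library totals, -0.05 with TMM and -0.0036 with DESeq2 size factors. The 2 counts were 1489 and 995 with TMM and 1647 and 577 with DESeq2 size factors. Over all other scalings the first count ran from 1318 to 3746 and the second from 18 to 995. Leaving out 1 library moved the second to 149 and 119 without replicate 1 and 2 of Mettl3 cKO at 2 h, to 134 without replicate 2 of Control at 0 h, and to 114 and 120 without replicate 1 and 2 of Control at 2 h. Of the 1955 genes, 1172 were still called lower in Mettl3 cKO, 669 passed in neither direction and 114 were higher.

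**Figure D4:**
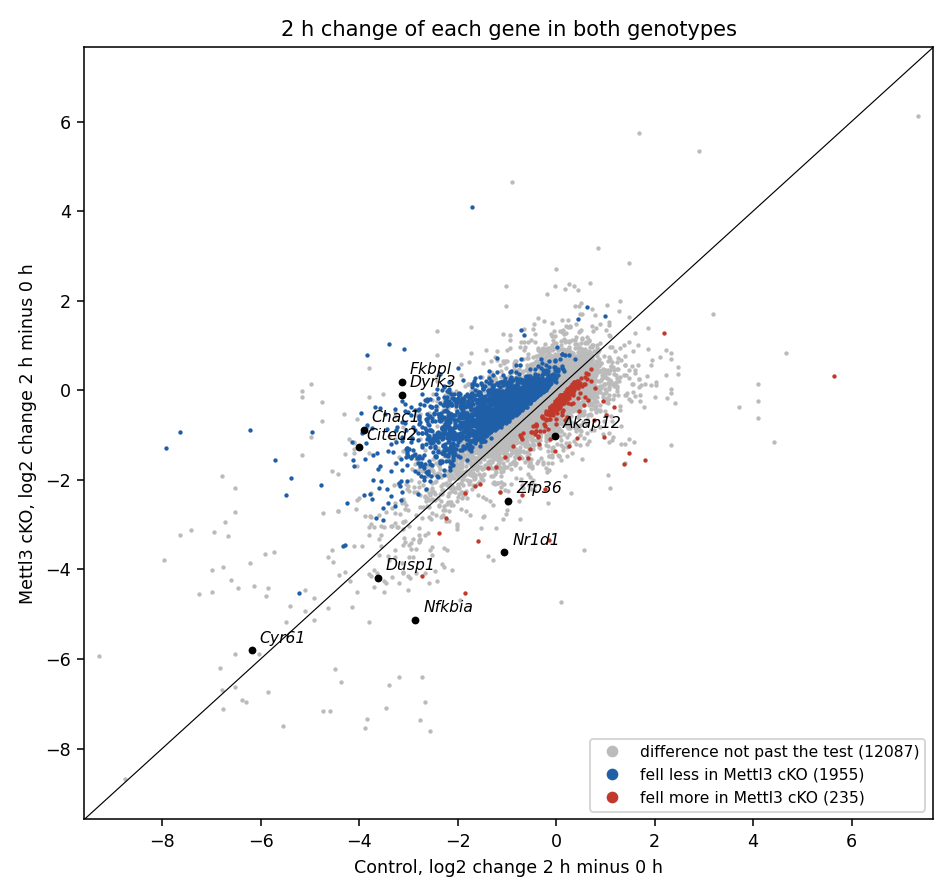
Log2 change from 0 to 2 h of each of 14277 genes in Control (x axis) and Mettl3 cKO (y axis), with the line of equal change. Genes whose difference passed the test are blue where they fell less (1955) and red where they fell more (235) in Mettl3 cKO, and black points are named genes.

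The 10 largest differences in this direction were large falls in Control. Med18, a Mediator subunit, had 15.9 and 20.7 CPM at 0 h and 12.2 and 13.7 CPM at 2 h in Mettl3 cKO and 8.55 and 8.67 CPM at 0 h and 0.585 and 0.505 CPM at 2 h in Control (difference ± SE 3.46 ± 0.31, adjusted p = 7.94e-09). Fkbpl, an immunophilin-like chaperone partner, had 18.1 and 17.2 CPM at 0 h and 19.98 and 20.1 CPM at 2 h in Mettl3 cKO, which did not pass the test, and in Control it had 5.25 and 5.80 CPM at 0 h and 0.426 and 0.841 CPM at 2 h (3.31 ± 0.29, adjusted p = 4.86e-09). Dyrk3, a kinase that dissolves stress granules, had 107 and 115 CPM at 0 h and 102 and 106 CPM at 2 h against 26.5 and 20.7 CPM at 0 h and 3.03 and 2.30 CPM at 2 h in Control (3.04 ± 0.17, adjusted p = 3.92e-12). These 3 genes stood higher in Mettl3 cKO already at 0 h. Cited2 and Chac1, a glutathione-degrading enzyme, began at less distant levels, Cited2 somewhat higher and Chac1 somewhat lower in Mettl3 cKO than in Control. Cited2 in Control had 502 and 469 CPM at 0 h and 32.03 and 28.4 CPM at 2 h (2.73 ± 0.08, adjusted p = 4.23e-17). Chac1 had 122 and 125 CPM at 0 h and 65.2 and 68.6 CPM at 2 h in Mettl3 cKO and 142 and 132 CPM at 0 h and 9.58 and 8.69 CPM at 2 h in Control (3.02 ± 0.11, adjusted p = 8.56e-16). The pioneer factor Foxa2 (2.98 ± 0.30), the melanosome biogenesis gene Hps6 (3.19 ± 0.28), the Polycomb member Cbx8 (2.85 ± 0.34) and the tRNA-modifying enzymes Trmt12 (2.72 ± 0.20) and Lcmt2 (2.63 ± 0.20) completed the 10. In 5 of the 10 the coding sequence held no exon junction, and in 8 at most 2 per kb, as in 13.8% of all genes.

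Groups described above differed in how many of their members passed this test. Over all genes tested 13.7% fell less and 1.65% fell more with library totals. The counts over all genes moved to 1489 and 995 with TMM, and the lists were not counted under other scalings. Zfp genes fell less in 143 of 306 cases and more in 2, with a Control median of -1.55 beside -0.78, and Zfp568 differed by 1.29 ± 0.08. Liver transcription factors fell less in 17 of 40 and more in 2, and integrated stress response genes fell less in 14 of 24 and more in 0. Immediate early factors gave 13 and 7 of 28. Among their abundant members Nfil3 differed by 2.16 ± 0.08 and Myc by 1.30 ± 0.09. Mcl1 in Control had 503 and 522 CPM at 0 h and 237 and 236 CPM at 2 h (1.03 ± 0.08, adjusted p = 3.18e-10), and Bcl2l1 (0.86 ± 0.08), Errfi1 (1.53 ± 0.08), Trib3 (1.38 ± 0.07), Bhlhe40 (1.70 ± 0.09), Tob2 (1.44 ± 0.13), Klf6 (0.80 ± 0.08) and Plk2 (0.81 ± 0.09) also fell less in Mettl3 cKO. Plasma carriers passed in 1 and 0 of 33 cases.

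Of the genes the study follows, Sirt1 (1.08 ± 0.15), Notch2 (0.76 ± 0.08), Cebpa (0.68 ± 0.15), Egfr (0.40 ± 0.07) and Onecut2 (0.33 ± 0.10) fell less, or did not fall, in Mettl3 cKO, and Mettl3 itself differed by 0.44 ± 0.13. Hnf4a changed by -0.19 in Mettl3 cKO and -0.23 in Control (difference 0.04 ± 0.13, adjusted p = 0.896). Ppara (0.71 ± 0.28, adjusted p = 0.0986) did not pass either.

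Genes that fell more, or gained less, in Mettl3 cKO were fewer, by a margin that depended on the scaling. Nr1d1 in Control had 48.4 and 48.5 CPM at 0 h and 25.4 and 21.4 CPM at 2 h (-2.57 ± 0.19, adjusted p = 2.99e-10), and Nfkbia in Control had 26.9 and 23.4 CPM at 0 h and 3.72 and 3.20 CPM at 2 h (-2.28 ± 0.26, adjusted p = 2.86e-07). Zfp36 in Control had 33.2 and 34.5 CPM at 0 h and 17.98 and 16.6 CPM at 2 h (-1.50 ± 0.17, adjusted p = 3.49e-07). In each of the 3 the Control values fell too, but by less. Akap12, a scaffold of protein kinase A, stood there at 127 and 127 CPM at 0 h and 124 and 127 CPM at 2 h beside 111 and 96.2 CPM at 0 h and 52.7 and 49.4 CPM at 2 h in Mettl3 cKO (-1.01 ± 0.09, adjusted p = 1.62e-08). Hspa1a (-0.97 ± 0.16), the integrin activator Fermt1 (-0.85 ± 0.17), Irf1 (-0.81 ± 0.26), the intermediate filament Nes (-0.74 ± 0.11), the sodium-proton exchanger Slc9a2 (-0.73 ± 0.21) and Agfg2 (-0.69 ± 0.16) made up the rest of the 10, and Dusp1 also differed (-0.56 ± 0.11). Of the 235 genes, 139 were called lower in Mettl3 cKO, while in Control 53 were lower and 97 higher. Their median was 6.34 junctions per kb of coding sequence, against 2.82 in the genes that fell less and 6.06 in all.

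**Figure D5:**
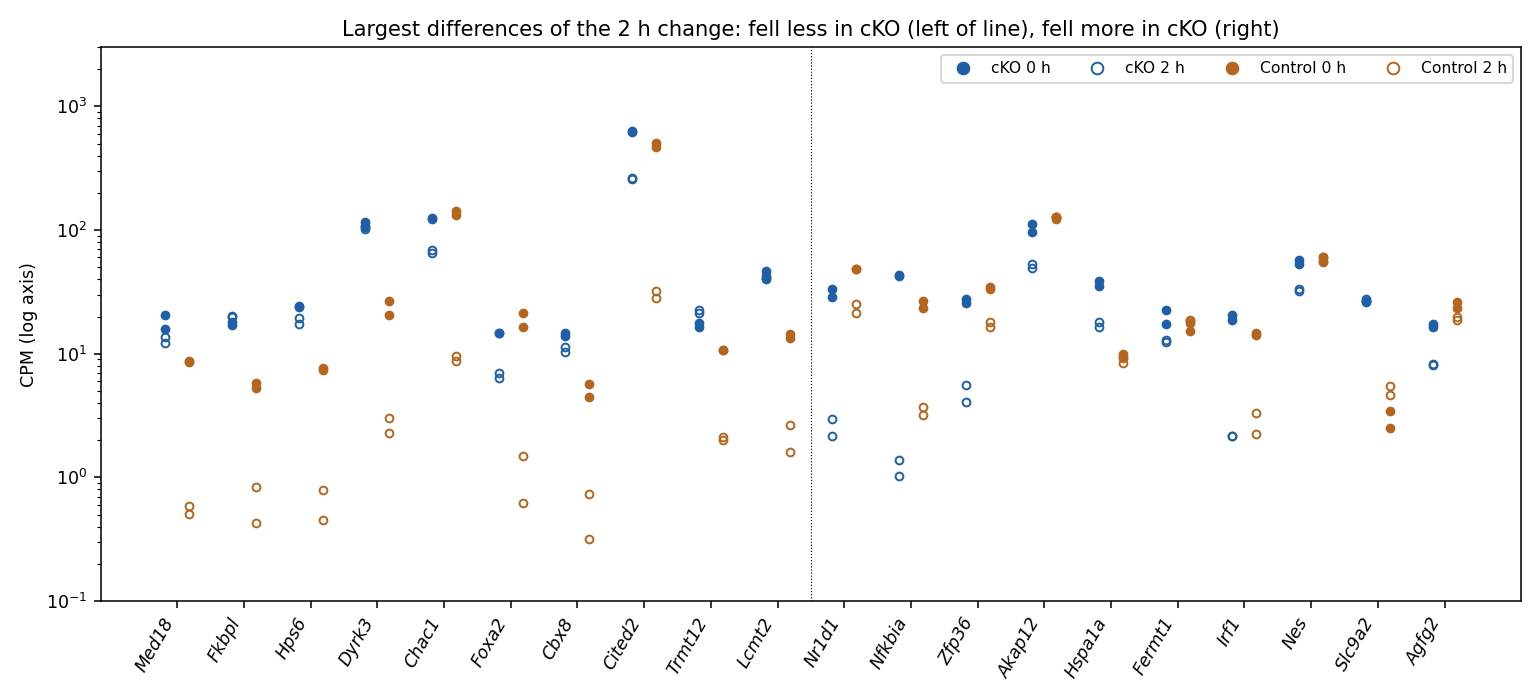
CPM on a log axis of the 10 genes with the largest differences in each direction, in Mettl3 cKO (blue) and Control (orange) at 0 h (filled) and 2 h (open), 1 circle per library. Left of the dotted line the Control values drop further than those of Mettl3 cKO, and right of it, except for Slc9a2, the Mettl3 cKO values drop further.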

How the data were processed

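Primary hepatocytes of Mettl3 cKO and Control mice were sampled at 0, 2 and 6 h of actinomycin D, with 2 libraries per group and 12 in all. The authors made poly(A)-selected, paired-end libraries that keep no strand information, aligned them to mm10 with STAR 2.5.3a, kept uniquely aligned reads and counted them over Gencode exons with featureCounts 2.0.1. The deposited values are whole-number counts per gene (48440 genes, not normalized), and which Gencode release was used is not stated. Reads of overlapping or antisense genes cannot be told apart, and reads of near-identical copies are lost or uncertain. Per-library totals were 16952084 to 20914516 in all 12 libraries.

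Counts of the 8 libraries at 0 and 2 h were fitted together with edgeR 4.0.16 (R 4.3.3) as 4 group means, with the total count as library size and filterByExpr (minimum count 10, minimum total 15), which left 14277 genes. The quasi-likelihood test gave the change from 0 to 2 h in Mettl3 cKO and its difference from that in Control. Calls were made at a Benjamini-Hochberg adjusted p under 0.05, values after ± are SEs on the log2 scale, and the prior count was 0.125. The 6 h libraries were left out of the fit. Replicates had Spearman correlations of 0.995 to 0.997 and chi-square values of 2.14 to 9.16 per gene, above sampling noise, so none was counted as a repeat. Alternatives were 5 other scalings, DESeq2 1.42.0, other filters, other sets of libraries, a replicate block and leaving out each library.

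Transcript features came from Gencode M21 on mm10, which held 14249 of the 14277 genes, 13145 of them with a coding transcript. Motifs were searched in 3' UTRs on the transcript strand, with overlapping matches counted.

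The named genes were Mettl3, the 20 largest falls and 20 largest rises among called genes whose mean reached 10 CPM and without predicted genes, up to 6 members per list (the largest called changes and the highest levels), 10 genes that the study names, and the 10 largest differences from Control in each direction. A few of these are given by number only or are not reported here. All members, lists and tests were chosen with earlier results of these data known.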

Additional observations from a re-analysis of the deposited data

Results flagged for a closer look

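Each value here is the difference of the log2 changes from 0 to 2 h, Mettl3 cKO minus Control, and each passed the test of the difference itself (edgeR's quasi-likelihood test, Benjamini-Hochberg adjusted over 14277 genes). With library totals 1955 genes fell less and 235 fell more in Mettl3 cKO, and with TMM 1489 and 995. Groups of 2 libraries are too small to look for single outlying libraries.

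Positive values stand for a smaller fall, or a larger gain, in Mettl3 cKO. The largest were Med18 (3.46), Fkbpl (3.31), Hps6 (3.19), Dyrk3 (3.04), Chac1 (3.02), Foxa2 (2.98), Cbx8 (2.85), Cited2 (2.73), Trmt12 (2.72) and Lcmt2 (2.63). Among abundant regulators they were Nfil3 (2.16), Bhlhe40 (1.70), Errfi1 (1.53), Tob2 (1.44), Trib3 (1.38), Myc (1.30), Zfp568 (1.29), Mcl1 (1.03), Bcl2l1 (0.86), Plk2 (0.81) and Klf6 (0.80). Of the genes the study names they were Sirt1 (1.08), Notch2 (0.76), Cebpa (0.68), Egfr (0.40) and Onecut2 (0.33), and Mettl3 itself stood at 0.44.

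Negative values stand for a larger fall, or a smaller gain, in Mettl3 cKO. They were Nr1d1 (-2.57), Nfkbia (-2.28), Zfp36 (-1.50), Akap12 (-1.01), Hspa1a (-0.97), Fermt1 (-0.85), Irf1 (-0.81), Nes (-0.74), Slc9a2 (-0.73), Agfg2 (-0.69) and Dusp1 (-0.56).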

How the results depend on the processing

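Relative to the library total 4402 genes were lower and 1864 higher. The counts of lower and higher genes were 6668 and 482 when scaled to Gapdh, 7827 and 151 when scaled to the ribosomal protein genes and 1680 and 3353 when scaled to the mitochondrially encoded genes. The count of higher genes was 3132 with TMM and 3781 with DESeq2 size factors. Genes that fell less than in Control numbered 1489 with TMM, 1647 with DESeq2 size factors and 3746 with Gapdh scaling, against 1955. Genes that fell more numbered 995, 577, 47, 115 and 18 with TMM, DESeq2 size factors, Gapdh, ribosomal and mitochondrial scaling and 147 with the DESeq2 Wald test, against 235. Asking also for an absolute log2 value over 1 left 1221, 46, 609 and 23 genes in the 4 counts. Leaving out each library in turn gave 3512 to 4476 lower, 1173 to 1916 higher, 1487 to 2046 that fell less and 114 to 315 that fell more.

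The log2 changes from 0 to 2 h of 14 named genes with small changes turned in direction. Scaled to Gapdh they were -0.061 for Mettl3, -0.045 for Pabpc1, -0.17 for Onecut2, -0.0077 for Rpl4 and -0.13 for Slc9a2, and scaled to the ribosomal protein genes -0.18, -0.16, -0.29, -0.12 and -0.24 in that order and -0.12 for Fkbpl. Scaled to the mitochondrially encoded genes they were 0.057 for Trib3, 0.10 for Hnf4a, 0.21 for Ppara, 0.00060 for Notch2, 0.18 for Mcl1, 0.24 for mt-Co1, 0.17 for Dyrk3 and 0.17 for Lcmt2. With TMM they were 0.021 for Ppara, 0.0058 for Mcl1 and 0.048 for mt-Co1, and with DESeq2 size factors 0.067, 0.052 and 0.094 for these, 0.039 for Dyrk3 and 0.043 for Lcmt2. Leaving out each library in turn gave -0.15 to 0.015 for Ppara, -0.063 to 0.10 for Onecut2, -0.17 to 0.0077 for Mcl1, -0.15 to 0.073 for mt-Co1 and -0.19 to 0.012 for Lcmt2. The cause was not tested beyond the construction of each scaling.

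Replicate numbers are shared by all groups. Deviations of same-numbered libraries correlated from -0.259 to 0.131 between groups, so the numbers were not read as pairs. With the replicate block 4280 genes were lower, 1769 higher, 1864 fell less and 193 fell more.

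With 2 libraries a group and no spike-in, neither the change of total mRNA nor differences between animals can be read, and genes under about 1 CPM rest on few reads.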

Other observations

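The medians by exon junction density were also taken without the numbered zinc finger genes. Among genes with over 0 to 2 junctions per kb of coding sequence, 880 were left, with a median log2 change from 0 to 2 h of -0.29 in Mettl3 cKO, and 42.7% of them fell less than in Control. Among the 741 left with no junction it was -0.20, with 36.7% that fell less, and among the 2782 with over 8 per kb it was 0.02, with 3.31%.

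Junction density was also read within classes of transcript length. In the shortest 20% of genes the median in Mettl3 cKO was 0.10 for up to 2 junctions per kb and 0.16 for over 8, with 25.9% and 1.89% of genes that fell less than in Control. In the longest 20% the medians were -0.56 and -0.16, with 55.6% and 6.82% that fell less. These are descriptions across genes of the same 8 libraries.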
